A study of Mus musculus with 12 samples.

Results

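Cholesterol handling was described here through 32 genes: 18 enzymes of cholesterol synthesis from Acat2 to Dhcr7, 5 genes of SREBP control, 4 genes of sterol transport and uptake, and 5 genes of the liver X receptors (LXR), cholesterol efflux and esterification. They were chosen by name for their known place in the pathway, with earlier results of these data known. The choice was out of 54115 genes with a transcript in the deposited quantifications. All 32 passed the filter on low counts that left 15367 genes to be tested. RNA came from eosinophils, granulocytes of type 2 immunity that also reside in fat, sorted as live CD45+ CD11b+ Siglec-F+ cells from 3 tissues of male FVB/NJ mice. The animals were wild type, untreated, on a chow diet and 20 weeks old. The tissues were blood, gonadal adipose tissue and subcutaneous adipose tissue, with 4 libraries each from 5 mice in all. Mice 2668 and 2807 gave all 3 tissues, 2683 gave blood and gonadal fat, 2771 gave blood and subcutaneous fat, and 2846 gave both fats. Fat was digested with collagenase II at 1 mg/mL for 45 min at 37 °C, and no digestion is given for blood, so tissue and digestion cannot be told apart in any comparison with blood.

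Cholesterol is built from acetyl-CoA through mevalonate, squalene and lanosterol. The transcription factor SREBP2, encoded by Srebf2, drives the genes of this route: SCAP carries it from the endoplasmic reticulum to be cleaved when sterols are scarce, and the INSIG proteins hold it back when sterols are plentiful. LXR alpha (Nr1h3) and LXR beta (Nr1h2) pair with RXR, bind oxysterols that form when cholesterol is plentiful, and turn on the exporters Abca1 and Abcg1 and the ubiquitin ligase Mylip, which lowers lipoprotein uptake. Both arms are therefore known to answer to sterol level in opposite ways.

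The 12 libraries held 4379954 to 23734940 estimated reads. The subcutaneous library of mouse 2846 stood apart with the lowest depth and with 28.0% of reads on mitochondrial ribosomal RNA, against 4.64% to 8.74% in the other 11, and the counts of genes called are also given without it. The 8 eosinophil markers were found in every group, though 2 of them had no reads in subcutaneous 2846. Siglecf, which the sort used, had 273 ± 44.3 CPM in blood, 341 ± 138 in gonadal fat and 307 ± 142 in subcutaneous fat (SD, n = 4). CPM is the read count relative to the scaled library total. Summed CPM of the 8 eosinophil markers ran from 8025 to 8945 in blood, 3327 to 6780 in gonadal fat and 3019 to 6508 in subcutaneous fat. Most of that sum (mean 8525, 5153 and 5079 CPM in that order) was Ptprc (3968, 2120 and 2202) and Itgam (1905, 986 and 920). Ptprc and Itgam encode CD45 and CD11b of the sort and are not particular to eosinophils, so the sum does not measure eosinophils alone. In bulk RNA, fewer cells of a type and less RNA per cell cannot be told apart.

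Promoter sequence is shown for 6 genes: Hmgcs1 as the member with the sterol regulatory element core, Lss and Insig1 as SREBP2 targets, Srebf2 itself, Sc5d as the enzyme that moved the other way, and Abca1 as the LXR-driven exporter. The stretches are from RefSeq on GRCm38.p6, read 5′ to 3′ on the gene's strand, and end before the first annotated base of the gene. Capitals mark the sterol regulatory element core (TCACNCCAC), the E-box (CACGTG) and the NF-Y box (CCAAT), on either strand.
Hmgcs1, chr13:119690101-119690350, plus strand: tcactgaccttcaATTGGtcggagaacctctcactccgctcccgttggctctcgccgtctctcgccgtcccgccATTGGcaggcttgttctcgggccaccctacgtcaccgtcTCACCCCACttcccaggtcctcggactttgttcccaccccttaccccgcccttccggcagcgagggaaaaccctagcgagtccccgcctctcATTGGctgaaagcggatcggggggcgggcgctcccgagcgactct
Lss, chr10:76531355-76531587, plus strand: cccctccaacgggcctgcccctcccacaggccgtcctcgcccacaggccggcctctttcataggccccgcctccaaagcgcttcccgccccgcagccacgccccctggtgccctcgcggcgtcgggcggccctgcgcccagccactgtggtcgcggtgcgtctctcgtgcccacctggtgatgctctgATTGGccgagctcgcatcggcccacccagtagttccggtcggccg
Srebf2, chr15:82147019-82147180, plus strand: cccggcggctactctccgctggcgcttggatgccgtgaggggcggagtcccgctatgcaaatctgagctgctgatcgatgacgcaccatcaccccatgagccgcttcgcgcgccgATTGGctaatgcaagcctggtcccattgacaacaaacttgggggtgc
Insig1, chr5:28071162-28071362, plus strand: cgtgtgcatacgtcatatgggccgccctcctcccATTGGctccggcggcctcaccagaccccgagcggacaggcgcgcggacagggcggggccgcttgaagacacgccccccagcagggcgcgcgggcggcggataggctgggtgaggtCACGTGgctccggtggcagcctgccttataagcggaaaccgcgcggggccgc
Sc5d, chr9:42264301-42264550, minus strand: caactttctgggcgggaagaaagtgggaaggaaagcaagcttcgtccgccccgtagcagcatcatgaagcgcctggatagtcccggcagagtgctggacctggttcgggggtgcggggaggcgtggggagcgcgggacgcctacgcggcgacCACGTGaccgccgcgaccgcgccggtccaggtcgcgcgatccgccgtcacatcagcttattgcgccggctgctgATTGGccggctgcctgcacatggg
Abca1, chr4:53159896-53160145, minus strand: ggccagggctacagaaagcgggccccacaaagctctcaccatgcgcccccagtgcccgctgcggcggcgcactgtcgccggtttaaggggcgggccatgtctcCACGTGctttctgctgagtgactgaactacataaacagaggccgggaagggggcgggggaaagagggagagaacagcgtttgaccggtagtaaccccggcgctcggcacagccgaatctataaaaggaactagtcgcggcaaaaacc
RefSeq windows from 250 bases before to 50 after the start were found for 26 of the 32 genes. The NF-Y box was in 21 of these 26 (80.8%), against 41.1% of all 27025 genes with a window, and the Sp1 GC box (GGGCGG, not capitalised) in 23 (88.5%), against 38.2%. The E-box was in 6 (23.1%; Abca1, Dhcr7, Hsd17b7, Insig1, Sc5d and Scap), against 8.09%. The exact sterol regulatory element core was in Hmgcs1 alone (3.85%), 137 bases before the start, against 1.44% of all genes. The exact DR4 element of LXR and RXR is a pair of GGTCA copies with 5 bases between them. It was in none of the 26 and in 0.0851% of all genes. Matches with a changed base, such as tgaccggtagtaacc in the Abca1 stretch (read on the other strand), were not counted. Sc5d held both an E-box 98 bases and an NF-Y box 24 bases before its start, and Insig1 held the same pair at 101 and 216 bases. Distances are counted from the RefSeq start. The printed Insig1 stretch ends earlier, at the GENCODE start of the gene, so its motifs lie nearer to the end of the stretch. The motif hits are matches of letters, not shown binding sites. The 27025 genes were not limited to those that passed the filter on low counts, as all 32 members did. A gene with more than 1 window counted if any of them matched. The shares of members and of all genes are therefore not from like sets.

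In gonadal fat eosinophils, 9 of the 32 genes were higher than in blood and 2 were lower, at an adjusted p under 0.05 in edgeR's quasi-likelihood test over all genes. Of all genes tested, 27% passed in gonadal fat and 26.8% in subcutaneous fat in either direction. The 9 are 28.1% of the members, where 15.4% of all genes were higher, and the 2 are 6.25%, where 11.6% of all genes were lower. In subcutaneous fat eosinophils, 8 were higher (25% against 15.4% of all genes) and 1 was lower (3.13% against 11.4%). Lss, Cyp51, Dhcr7, Srebf2 and Abca1 were higher in both fats, and Sc5d was lower in both. The median log2 fold change of the 32 genes was 1.04 in gonadal fat and 0.49 in subcutaneous fat, against 0.08 and 0.07 for all genes. Both fats were compared with the same blood libraries. The members were chosen with earlier results known, so their shares and medians are not independent of these data. In parentheses below, a log2 fold change against blood is given with its standard error after ± and its adjusted p from that test.

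The count of higher genes depended on single libraries. In gonadal fat it was 3 without gonadal 2683, 4 without gonadal 2846, blood 2771 or blood 2668, and 5 without blood 2683. For subcutaneous fat it was 2 without blood 2771, blood 2683 or blood 2668, and 5 without subcutaneous 2846 or subcutaneous 2807. With the mouse as a block, since the libraries share animals, 5 genes were higher in gonadal fat and 2 in subcutaneous fat. Without subcutaneous 2846 the counts were 12 (37.5%, where 18.4% of all genes were higher) and 5 (15.6%, against 13.5%), and without it and blood 2807 together they were 14 and 6. The counts over all genes moved as well. The 2372 genes higher in gonadal fat became 1711 without gonadal 2683, 1830 without gonadal 2846, and 1546 to 1564 without blood 2771, blood 2683 or blood 2668, and 1862 with the block. The 2366 genes higher in subcutaneous fat became 1566 to 1598 without the same 3 blood libraries, 2147 without subcutaneous 2846, 2340 without subcutaneous 2807 and 1588 with the block.

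**Figure D1:**
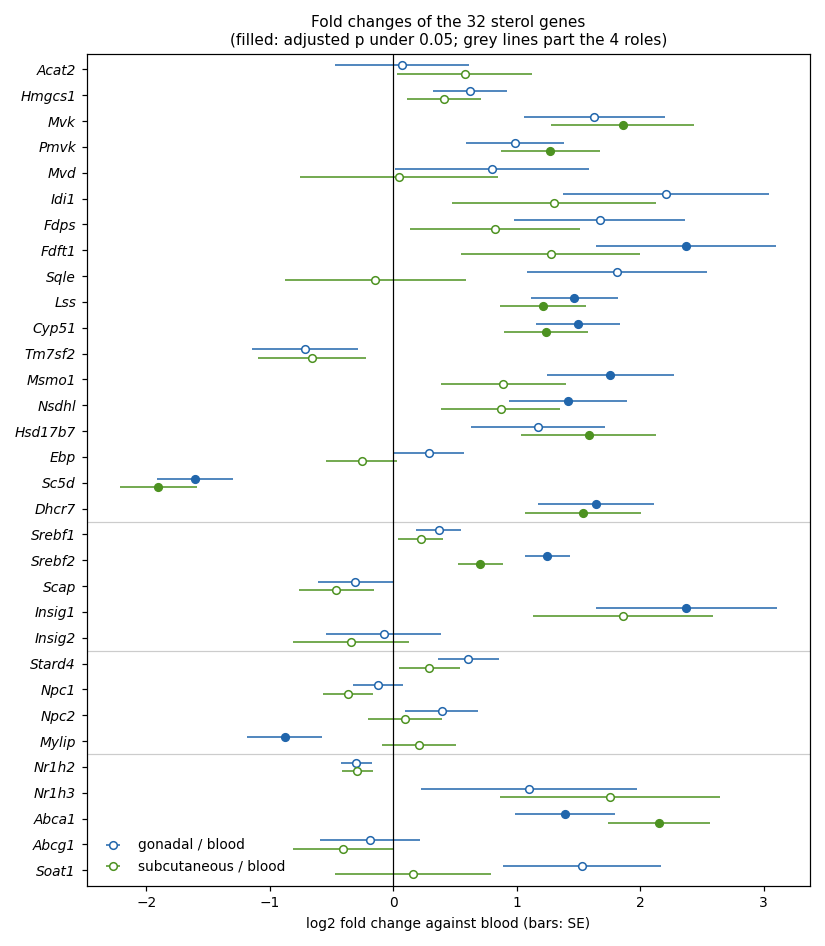
Log2 fold change against blood (horizontal axis) for each of the 32 genes (vertical axis), in gonadal fat (blue) and subcutaneous fat (green), with bars of 1 standard error; filled points passed the adjusted threshold of 0.05 and grey lines part synthesis enzymes, SREBP control, transport and uptake, and the LXR group. Sc5d lies at the far left at -1.61 and -1.90, while 9 genes in gonadal fat and 8 in subcutaneous fat have filled points on the right.

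Of the 18 synthesis enzymes, 6 were higher and 1 was lower in each fat than in blood, and 11 did not pass. Fold changes were positive for 16 of 18 in gonadal fat (median 1.44) and for 14 of 18 in subcutaneous fat (median 0.88). In gonadal fat, 9 enzymes had every library above every blood library, where 18.6% of all genes did, and 1 had every library below, where 17.7% did. In subcutaneous fat these counts were 3, against 13.8% of all genes, and 1, against 15.7%. Without subcutaneous 2846, 9 enzymes were called higher in gonadal fat (18.4% of all genes were) and 3 in subcutaneous fat (13.5%). Sc5d was still the 1 lower in each. Then 5 subcutaneous enzymes lay wholly above blood, but fewer libraries overlap less easily, so this count is not comparable with the 13.8% of all genes. Values by library are given below as CPM in the order of mouse number: 2668, 2683, 2771 and 2807 for blood, 2668, 2683, 2807 and 2846 for gonadal fat, and 2668, 2771, 2807 and 2846 for subcutaneous fat.

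The first committed steps make mevalonate and phosphorylate it. Mvk, mevalonate kinase, stood at 0.744, 0.681, 0.704 and 1.31 CPM in blood, 1.95, 3.22, 3.24 and 2.24 in gonadal fat and 2.80, 1.05, 3.49 and 5.39 in subcutaneous fat. All 4 gonadal libraries lay above blood, while the lowest subcutaneous library fell inside the blood range, and these values rest on few reads (65 over the 4 blood libraries). It was higher in subcutaneous fat (log2 fold change 1.86 ± 0.58, adjusted p = 0.0322) but not past the threshold in gonadal fat (log2 fold change 1.63 ± 0.57, adjusted p = 0.0507). Pmvk, phosphomevalonate kinase, stood at 6.60, 4.71, 4.51 and 6.11 CPM in blood, 13.6, 8.87, 11.7 and 9.23 in gonadal fat and 14.3, 20.5, 13.9 and 3.59 in subcutaneous fat. Its gonadal libraries all lay above blood, and subcutaneous 2846 lay below all blood libraries. Pmvk was called higher in subcutaneous fat (log2 fold change 1.27 ± 0.40, adjusted p = 0.0341) and missed the threshold in gonadal fat (log2 fold change 0.98 ± 0.40, adjusted p = 0.0847). With the mouse as a block the subcutaneous adjusted p became 0.116 for Mvk and 0.0536 for Pmvk. The call of Mvk was also lost with no low-count filter (0.0873), with only the 2 groups compared (0.0652), with an offset for effective transcript length (0.163), without subcutaneous 2846 and blood 2807 together (0.0503) and with protein-coding transcripts only (0.434), and that of Pmvk with only the 2 groups compared (0.0641) and with the length offset (0.0679). Leaving out blood 2771, blood 2683, blood 2668, subcutaneous 2846 or subcutaneous 2807 ended the call of Mvk (adjusted p 0.0579 to 0.0857). The call of Pmvk held only without gonadal 2683, gonadal 2668 or subcutaneous 2846, and was lost without each of the other 9 libraries (0.0503 to 0.115).

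Acat2, Hmgcs1, Mvd, Idi1 and Fdps, which act before squalene, did not pass in either fat. Hmgcs1, which makes HMG-CoA, ranged from 17.8 to 34.7 CPM in blood, 23.7 to 52.3 in gonadal fat and 22.5 to 42.8 in subcutaneous fat. Idi1, isopentenyl diphosphate isomerase, ranged from 0.376 to 6.65 in blood and 8.77 to 16.0 in gonadal fat without overlap (log2 fold change 2.21 ± 0.83, adjusted p = 0.0666), and from 1.58 to 14.7 in subcutaneous fat. Acat2, a thiolase that joins acetyl-CoA units, ranged from 1.42 to 3.85 in blood, 0.793 to 3.94 in gonadal fat and 2.79 to 6.29 in subcutaneous fat. Mvd, the decarboxylase that follows Pmvk, ranged from 0.447 to 5.34, 1.297 to 5.18 and 1.03 to 4.19 in that order. Fdps, which makes farnesyl diphosphate, ranged from 0.845 to 5.46, 2.52 to 14.4 and 1.27 to 6.29. These groups overlapped. Blood 2807 had the highest Hmgcs1, Mvd, Idi1 and Fdps of the blood libraries.

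Squalene is made by Fdft1 and oxidised by Sqle before Lss closes the rings to lanosterol. Fdft1, squalene synthase, stood at 0.645, 2.51, 1.597 and 1.78 CPM in blood, 6.82, 8.84, 7.78 and 10.5 in gonadal fat and 3.75, 0.496, 1.66 and 10.8 in subcutaneous fat. The gonadal libraries lay apart from blood, whereas in subcutaneous fat only 2846 and 2668 exceeded the blood range. The gene was higher in gonadal fat (log2 fold change 2.37 ± 0.73, adjusted p = 0.03), and not past the threshold in subcutaneous fat (log2 fold change 1.28 ± 0.73, adjusted p = 0.21). The gonadal call was lost with the mouse as a block (adjusted p 0.111) and without any 1 of blood 2807, blood 2771, blood 2668, gonadal 2846, gonadal 2807 or gonadal 2683 (0.0537 to 0.0838). Fdft1 overlaps Ctsb on the other strand, and the strand setting of the counting is not known here.

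Lss, lanosterol synthase (ENSMUSG00000033105, chr10:76531588-76557138 on GRCm38, plus strand, overlapped on the other strand by 4930483K19Rik), stood at 3.82, 2.51, 4.79 and 3.62 CPM in blood, 6.40, 13.8, 9.15 and 11.5 in gonadal fat and 6.18, 8.42, 6.81 and 13.2 in subcutaneous fat. Every library of either fat lay above every blood library. Its level was 2.76 times blood in gonadal fat (log2 fold change 1.47 ± 0.35, adjusted p = 0.00913) and 2.32 times blood in subcutaneous fat (log2 fold change 1.21 ± 0.35, adjusted p = 0.0232). Of its reads, 69.7% in blood, 47.1% in gonadal fat and 68.2% in subcutaneous fat were assigned to transcripts not annotated as protein-coding, pooled over libraries. With protein-coding transcripts only, neither call of Lss held (adjusted p 0.226 in gonadal and 0.403 in subcutaneous fat), nor with an offset for effective transcript length (0.358 and 0.850). The subcutaneous call was also lost with the mouse as a block (0.0803), without subcutaneous 2846 and blood 2807 together (0.0809) and without blood 2683, blood 2668 or subcutaneous 2846 (0.05003 to 0.0723).

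Beyond lanosterol, Cyp51 removes a methyl group, and Msmo1, Nsdhl and Hsd17b7 act in the removal of the next ones. Cyp51 (ENSMUSG00000001467, chr5:4081145-4104746, minus strand) stood at 5.80, 5.76, 7.56 and 12.4 CPM in blood, 20.5, 28.9, 14.6 and 24.8 in gonadal fat and 22.1, 21.1, 21.6 and 8.98 in subcutaneous fat. All gonadal libraries and 3 of 4 subcutaneous ones lay above blood, and subcutaneous 2846, the shallow library, lay within it. Cyp51 was higher in gonadal fat (log2 fold change 1.495 ± 0.34, adjusted p = 0.00754) and in subcutaneous fat (log2 fold change 1.24 ± 0.34, adjusted p = 0.0188). The gonadal call held without each library in turn and was lost with the effective length offset (adjusted p 0.0821), and the subcutaneous one was lost without blood 2771, blood 2683 or blood 2668 (0.0526 to 0.0637). Cyp51 overlaps Akap9 on the other strand.

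Msmo1, methylsterol monooxygenase, stood at 5.41, 4.92, 6.998 and 8.66 CPM in blood, 11.9, 38.1, 12.4 and 25.5 in gonadal fat and 4.49, 15.3, 6.58 and 22.8 in subcutaneous fat. Gonadal libraries lay above blood, with 2683 and 2846 far over the other two. The subcutaneous values spread from below the blood range to far above it. It was higher in gonadal fat (log2 fold change 1.76 ± 0.51, adjusted p = 0.0235) and did not pass in subcutaneous fat (log2 fold change 0.89 ± 0.51, adjusted p = 0.21). The call was lost with the mouse as a block (adjusted p 0.0502), with protein-coding transcripts only (0.122) and without blood 2771, blood 2683, blood 2668, gonadal 2846 or gonadal 2683 (0.0540 to 0.0768).

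Nsdhl, a sterol dehydrogenase, stood at 1.04, 2.62, 2.07 and 1.13 CPM in blood, 3.11, 6.32, 3.03 and 5.84 in gonadal fat and 2.94, 3.65, 2.14 and 3.89 in subcutaneous fat. The gonadal libraries did not overlap blood and the subcutaneous ones did. It was called higher in gonadal fat (log2 fold change 1.41 ± 0.48, adjusted p = 0.0438), not in subcutaneous fat (log2 fold change 0.87 ± 0.48, adjusted p = 0.196). The call was lost with the mouse as a block (adjusted p 0.0682), with protein-coding transcripts only (0.0555), with the effective length offset (0.0924), with no low-count filter (0.116), without subcutaneous 2846 and blood 2807 together (0.0712) and without 8 of the 12 libraries singly (up to 0.136). Hsd17b7, a sterol ketoreductase, stood at 0.546, 2.67, 1.03 and 1.36 CPM in blood, 2.80, 4.48, 1.66 and 3.73 in gonadal fat and 3.53, 5.82, 4.12 and 3.29 in subcutaneous fat. Only the subcutaneous libraries lay wholly above blood. It was higher in subcutaneous fat (log2 fold change 1.58 ± 0.55, adjusted p = 0.0489), not in gonadal fat (log2 fold change 1.17 ± 0.54, adjusted p = 0.126), and 107 reads over the 4 blood libraries carry the comparison. That call was lost with the mouse as a block (0.0508), with protein-coding transcripts only (0.397), with no low-count filter (0.104), with only the 2 groups compared (0.0748), without subcutaneous 2846 and blood 2807 together (0.0750) and without 10 of the 12 libraries singly (up to 0.124).

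Sc5d and Dhcr7 act one after the other near the end of the pathway, and their transcripts differed from blood in opposite directions. Sc5d (ENSMUSG00000032018, chr9:42251595-42264256, minus strand), the lathosterol oxidase, stood at 71.7, 61.2, 67.5 and 62.1 CPM in blood, 17.0, 24.5, 24.4 and 20.3 in gonadal fat and 13.3, 16.8, 31.1 and 8.09 in subcutaneous fat. Every fat library lay far below every blood library, with subcutaneous 2807 the nearest. Sc5d was lower in gonadal fat (log2 fold change -1.61 ± 0.31, adjusted p = 0.00283) and in subcutaneous fat (log2 fold change -1.90 ± 0.31, adjusted p = 0.00114). Both calls held under all 22 alternatives, with log2 fold changes of -1.70 to -1.33 and -2.35 to -1.65, and within all 3 mice with both tissues (-2.07 to -1.31 in gonadal fat, -2.42 to -0.99 in subcutaneous fat). All reads of Sc5d were assigned to protein-coding transcripts, and no other gene overlaps it in the annotation.

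Dhcr7 (ENSMUSG00000058454, chr7:143823145-143848410, plus strand), the reductase that follows it, stood at 3.18, 2.20, 1.69 and 4.15 CPM in blood, 4.75, 12.4, 7.56 and 10.2 in gonadal fat and 5.74, 6.38, 4.91 and 16.2 in subcutaneous fat. Both fats lay wholly above blood. It was higher in gonadal fat (log2 fold change 1.64 ± 0.47, adjusted p = 0.0213) and in subcutaneous fat (log2 fold change 1.54 ± 0.47, adjusted p = 0.0297). Transcripts not annotated as protein-coding took 41.0% of its reads in blood, 9.47% in gonadal fat and 23.3% in subcutaneous fat. With an offset for effective transcript length the gonadal log2 fold change was -0.07 ± 0.87 (SE, adjusted p = 0.968) and the subcutaneous one 0.99 ± 0.89 (0.464), so neither call was kept. In TPM, which divides by that length, Dhcr7 stood at 5.99, 0.546, 0.541 and 1.20 in blood, 1.25, 2.61, 1.56 and 1.86 in gonadal fat and 1.04, 1.75, 1.26 and 9.53 in subcutaneous fat. Blood 2668 stood apart, above every gonadal library, while the other 3 blood libraries lay below all 4 gonadal ones, and subcutaneous 2846 was far above the other subcutaneous libraries. With the mouse as a block the adjusted p was 0.0824 and 0.0843, and with only the 2 groups compared the subcutaneous one was 0.0509. The gonadal call was lost without blood 2771, blood 2683, gonadal 2846 or gonadal 2683 (0.0542 to 0.0663), and the subcutaneous one without blood 2771, blood 2683, blood 2668 or subcutaneous 2846 (0.0608 to 0.0848).

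Of the other late enzymes, Tm7sf2, a sterol reductase, ranged from 3.15 to 5.36 CPM in blood, 1.87 to 3.26 in gonadal fat and 1.35 to 3.89 in subcutaneous fat. Ebp, a sterol isomerase, ranged from 9.30 to 14.6 in blood, 10.4 to 19.1 in gonadal fat and 6.59 to 15.2 in subcutaneous fat, and neither gene passed in either fat. Sqle, squalene epoxidase, ranged from 0.595 to 5.58 in blood, 3.11 to 11.9 in gonadal fat and 0.662 to 2.70 in subcutaneous fat. It did not pass against blood (log2 fold change 1.81 ± 0.73, adjusted p = 0.0827 in gonadal fat), and its gonadal libraries all lay above the subcutaneous ones.

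**Figure D2:**
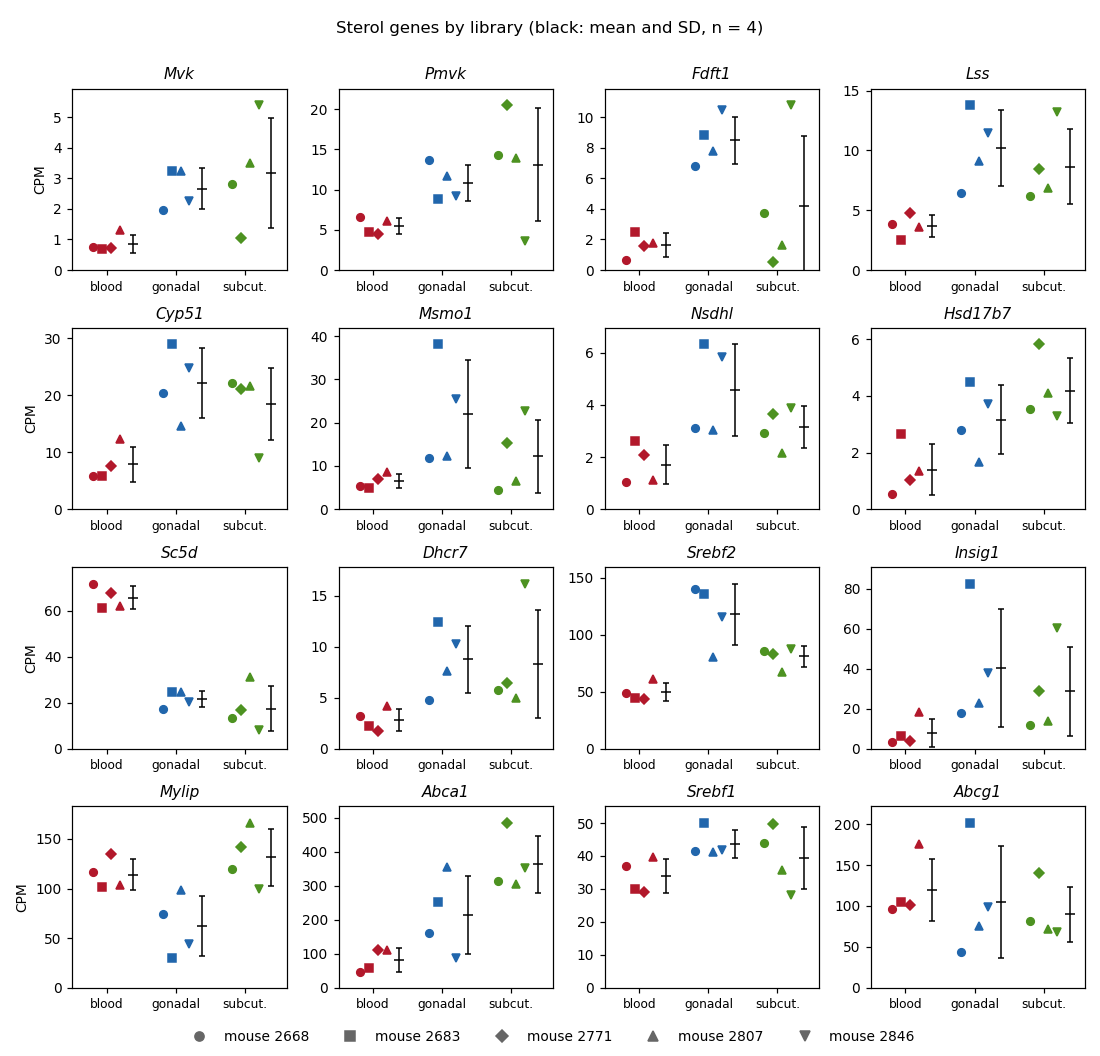
CPM (vertical axes, linear from 0) of 16 genes in each library of blood, gonadal fat and subcutaneous fat, with the shape of the point giving the mouse and black bars the mean and SD (n = 4; the SD of subcutaneous Fdft1 runs below the axis). Sc5d is high in all 4 blood libraries, Abca1 in all 4 subcutaneous libraries, and the highest gonadal value of Msmo1, Insig1, Lss, Cyp51, Nsdhl, Hsd17b7, Dhcr7, Srebf1 and Abcg1 is from mouse 2683.

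Of the 5 genes that control SREBP processing, 2 were higher in gonadal fat and 1 in subcutaneous fat. Srebf2 (ENSMUSG00000022463, chr15:82147181-82205379, plus strand) stood at 48.6, 44.7, 43.9 and 61.5 CPM in blood, 140.3, 136, 80.8 and 115 in gonadal fat and 86.1, 83.1, 67.7 and 87.4 in subcutaneous fat. Every library of either fat was above every blood library, and the 2 fats overlapped. Srebf2 was higher in gonadal fat (log2 fold change 1.25 ± 0.19, adjusted p = 0.000557), under all 22 alternatives (0.97 to 1.38), and in subcutaneous fat (log2 fold change 0.71 ± 0.18, adjusted p = 0.0148). The subcutaneous call was lost with the mouse as a block (adjusted p 0.0548), with protein-coding transcripts only (0.136) and without blood 2771 or blood 2683 (0.0513 and 0.0517). Within mice it was higher in 3 of 3 pairs in gonadal fat (0.39 to 1.597) and in 3 of 3 in subcutaneous fat (0.14 to 0.92).

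Insig1 (ENSMUSG00000045294, chr5:28071363-28078662, plus strand), a retention protein whose own gene is an SREBP target, stood at 3.08, 6.02, 3.66 and 18.4 CPM in blood, 17.9, 82.5, 22.7 and 37.9 in gonadal fat and 11.9, 28.6, 13.6 and 60.2 in subcutaneous fat. Blood 2807 was the high blood library, at a level that lay among the fat libraries, and the highest fat values came from gonadal 2683 and subcutaneous 2846. It was higher in gonadal fat (log2 fold change 2.37 ± 0.74, adjusted p = 0.0338) and missed the threshold in subcutaneous fat (log2 fold change 1.86 ± 0.73, adjusted p = 0.0798). The gonadal log2 fold change was 3.20 without blood 2807 and 1.73 without gonadal 2683 (adjusted p 0.00818 and 0.103). The call was also lost with the mouse as a block (0.0703), with no low-count filter (0.08999) and without blood 2771, blood 2683, blood 2668 or gonadal 2846 (from 0.0578).

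Srebf1, whose product favours fatty acid synthesis and which is also an LXR target, stood at 36.9, 30.1, 29.2 and 39.6 CPM in blood, 41.6, 50.1, 41.4 and 41.9 in gonadal fat and 43.9, 49.7, 35.8 and 28.1 in subcutaneous fat. Its gonadal libraries all lay above blood, but the gene passed in neither fat (log2 fold change 0.37 ± 0.18, adjusted p = 0.16 in gonadal fat, log2 fold change 0.22 ± 0.19, adjusted p = 0.403 in subcutaneous fat). Insig2, the other INSIG gene, stood at 8.34, 8.80, 6.34 and 11.8 CPM in blood, 11.3, 10.6, 6.20 and 5.36 in gonadal fat and 10.4, 5.51, 9.75 and 1.497 in subcutaneous fat. The groups overlapped and neither fat passed (log2 fold change -0.08 ± 0.47, adjusted p = 0.923 and log2 fold change -0.35 ± 0.47, adjusted p = 0.618). Scap, the escort of SREBP, ranged from 111 to 139.5 in blood, 62.2 to 122 in gonadal fat and 39.8 to 137 in subcutaneous fat and did not pass.

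Among the 4 transport and uptake genes, Mylip alone passed, in gonadal fat alone. Mylip (ENSMUSG00000038175, chr13:45389742-45412022, plus strand), an LXR target that sends lipoprotein receptors to degradation, stood at 116, 102, 135 and 103 CPM in blood, 74.9, 30.4, 98.3 and 44.6 in gonadal fat and 119, 142, 166 and 99.7 in subcutaneous fat. All gonadal values lay below all blood and all subcutaneous values, in both cases by a small margin. It was lower in gonadal fat (log2 fold change -0.88 ± 0.30, adjusted p = 0.0468) and did not pass in subcutaneous fat (log2 fold change 0.21 ± 0.30, adjusted p = 0.641). The gonadal call was lost without 10 of the 12 libraries (adjusted p up to 0.118), all but gonadal 2807 and subcutaneous 2846, and with the effective length offset (0.0611), protein-coding transcripts only (0.0545), no low-count filter (0.0621), only the 2 groups compared (0.0639) or subcutaneous 2846 and blood 2807 left out together (0.0552). Stard4, a carrier of cholesterol between membranes and an SREBP2 target, ranged from 15.1 to 20.7 CPM in blood, 20.3 to 36.2 in gonadal fat and 13.4 to 25.6 in subcutaneous fat. Npc1, which exports cholesterol from lysosomes, ranged from 94.9 to 116 in blood, 82.0 to 121 in gonadal fat and 52.7 to 107 in subcutaneous fat. Its partner Npc2 ranged from 67.8 to 79.0, 59.3 to 159.5 and 50.8 to 106 in the same order. None of these 3 passed in either fat.

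In the LXR group, Abca1 alone passed. Abca1 (ENSMUSG00000015243, chr4:53030787-53159895, minus strand), the exporter that loads cholesterol onto lipid-poor apolipoprotein, stood at 45.3, 58.9, 112 and 111 CPM in blood, 162, 252, 355 and 87.5 in gonadal fat and 313, 485, 304 and 351 in subcutaneous fat. All subcutaneous values lay well above blood, and in gonadal fat 3 libraries did while that of mouse 2846 lay inside the blood range. Abca1 was higher in subcutaneous fat (log2 fold change 2.15 ± 0.41, adjusted p = 0.00321), under all 22 alternatives (1.70 to 2.43), and in gonadal fat (log2 fold change 1.39 ± 0.40, adjusted p = 0.0244). The gonadal call was lost without blood 2683, blood 2668, gonadal 2807 or gonadal 2683 (adjusted p 0.0627 to 0.0790), with the effective length offset (0.107), with no low-count filter (0.0576) and with limma-voom (0.0585). Within mice Abca1 was higher in 3 of 3 pairs in each fat (1.68 to 2.09 and 1.46 to 2.79). Mouse 2846 gave no blood, so its gonadal library, the one inside the blood range, is in none of these pairs.

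Abcg1, the exporter to HDL and likewise an LXR target, stood at 96.3, 105, 102 and 176 CPM in blood, 44.2, 202, 76.1 and 98.3 in gonadal fat and 81.1, 140.0, 71.5 and 68.0 in subcutaneous fat. The groups overlapped, and it did not pass in gonadal fat (log2 fold change -0.19 ± 0.41, adjusted p = 0.774) or subcutaneous fat (log2 fold change -0.41 ± 0.41, adjusted p = 0.49). On the log2 scale Abca1 minus Abcg1 was -1.09 to 0.14 in blood, -0.17 to 2.22 in gonadal fat and 1.79 to 2.37 in subcutaneous fat.

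The LXR genes themselves passed in neither fat. Nr1h2 stood at 98.0, 77.2, 79.4 and 83.3 CPM in blood, 65.5, 69.5, 71.5 and 68.3 in gonadal fat and 74.8, 75.1, 63.5 and 62.6 in subcutaneous fat. Both fats lay just below blood without overlap (log2 fold change -0.30 ± 0.12, adjusted p = 0.0918 in gonadal fat, log2 fold change -0.29 ± 0.12, adjusted p = 0.0993 in subcutaneous fat). Nr1h3 stood at 0.695, 1.68, 5.59 and 3.44 CPM in blood, 4.57, 13.9, 2.67 and 3.26 in gonadal fat and 1.69, 27.5, 5.63 and 3.29 in subcutaneous fat. Gonadal 2683 and subcutaneous 2771 were the high libraries, and the errors were wide (log2 fold change 1.099 ± 0.88, adjusted p = 0.385 in gonadal fat, log2 fold change 1.76 ± 0.89, adjusted p = 0.161 in subcutaneous fat). Soat1, which esterifies cholesterol for storage, ranged from 14.4 to 52.9 in blood, 30.5 to 225 in gonadal fat and 17.7 to 76.6 in subcutaneous fat and did not pass (log2 fold change 1.53 ± 0.64, adjusted p = 0.0992 in gonadal fat).

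Levels were compared between genes on TPM, which accounts for transcript length. Nr1h2 had the highest TPM of the 32 genes in each tissue, at 56.1 ± 16.9 in blood, 45.3 ± 12.1 in gonadal fat and 41.2 ± 14.5 in subcutaneous fat (SD, n = 4). Nr1h3 had 0.832 ± 0.672, 1.84 ± 0.647 and 1.84 ± 2.11 TPM. Srebf2 ranked at place 8 in blood and 4 in both fats, and Abca1 at 13 in blood, 7 in gonadal fat and 5 in subcutaneous fat. Srebf1 had 5.88 ± 4.25, 7.02 ± 2.23 and 7.81 ± 4.72 TPM. The lowest was Hsd17b7 in blood (0.093 ± 0.0429) and gonadal fat (0.435 ± 0.108), and Sqle in subcutaneous fat (0.192 ± 0.0903).

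Synthesis and export were set side by side in each library. The mean log2 CPM of the 18 enzymes was 1.58 to 2.40 in blood, 2.63 to 3.44 in gonadal fat and 2.28 to 2.95 in subcutaneous fat. Gonadal fat lay wholly above blood, and subcutaneous fat overlapped both. Summed CPM of the enzymes was 138 to 180 in blood, 149 to 271 in gonadal fat and 126 to 184 in subcutaneous fat, and without Sc5d it was 71.2 to 117, 132 to 247 and 112 to 175. Abca1 on the log2 scale was 5.51 to 6.81 in blood, 6.45 to 8.47 in gonadal fat and 8.25 to 8.92 in subcutaneous fat. Enzymes minus the mean of the 2 exporters gave -5.05 to -4.39 in blood, -4.74 to -3.29 in gonadal fat and -5.45 to -4.32 in subcutaneous fat, with overlap of all 3 groups.

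**Figure D3:**
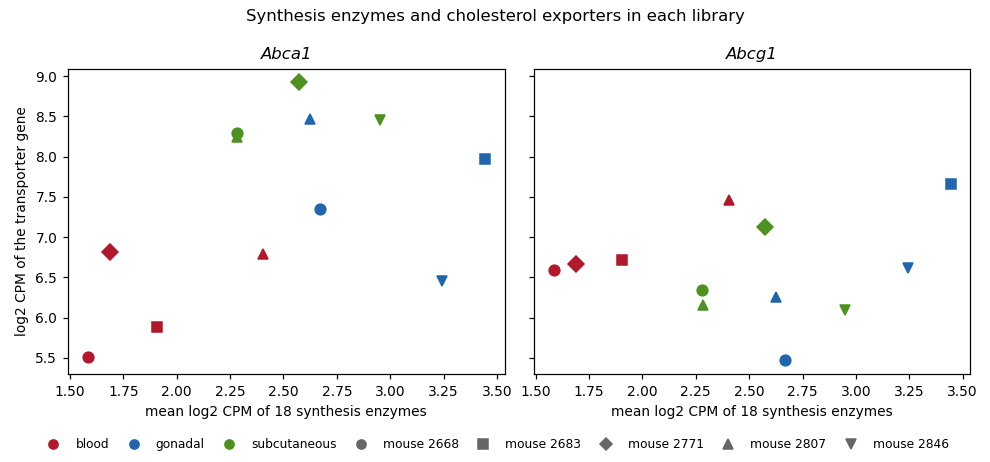
Mean log2 CPM of the 18 synthesis enzymes (horizontal axis) against log2 CPM of Abca1 (left) and Abcg1 (right) in each of the 12 libraries, with colour for the tissue and shape for the mouse. The blood libraries lie at 1.58 to 2.40 on the horizontal axis and 5.51 to 6.81 on Abca1, the subcutaneous libraries lie at 8.25 to 8.92 on Abca1, and the gonadal libraries reach furthest right, to 3.44.

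Within each tissue, 1 library held the highest value for many of the genes. Blood 2807 was highest of its group for 18 of the 32 genes and lowest for 3, and gonadal 2683 was highest for 19 and lowest for 4. Subcutaneous 2846, the shallow library, was highest for 15 and lowest for 12. Of the 18 enzymes these libraries were highest for 10, 12 and 13, and subcutaneous 2846 was lowest for the other 5, so that it was at 1 end of its group for every enzyme. Subcutaneous 2771 was highest for all 5 genes of the LXR group. The same 3 libraries had the highest sum of 8 monocyte markers in their tissue, at 1895 CPM in blood 2807 (98.5 to 420.3 in the other blood libraries), 6758 CPM in gonadal 2683 (933 to 3898) and 1582 CPM in subcutaneous 2846 (404 to 884). Most of that sum was Fn1 in blood and gonadal fat, and 1 of the 8 markers was called higher in each fat. These 3 libraries also had the lowest sum of the 8 eosinophil markers in their tissue. It was 8025 CPM in blood 2807 (8527 to 8945 in the other blood libraries). It was 3327 CPM in gonadal 2683 (5189 to 6780 in the others) and 3019 CPM in subcutaneous 2846 (4284 to 6508). The 16 macrophage markers summed to 335 to 737 CPM in blood, 910.0 to 3044 in gonadal fat and 1026 to 3488 in subcutaneous fat, with 8 of 16 called higher in each fat (5 in subcutaneous fat without subcutaneous 2846), and the highest libraries were blood 2807, gonadal 2683 and subcutaneous 2771. No monocyte or macrophage marker was at 0 throughout a group, and the part of these cells in the sterol gene results was not tested.

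A list of 16 genes known to respond to tissue dissociation summed to 1988 to 2477 CPM in blood, 13783 to 17771 in gonadal fat and 18671 to 24105 in subcutaneous fat, with 15 and 16 genes called higher. Adipocyte markers, 9 genes, summed to 0.992 to 5.64 CPM in blood, 14.0 to 98.6 in gonadal fat and 10.96 to 164 in subcutaneous fat, and Adipoq, Plin1 and Cfd were at 0 in all blood libraries. Subcutaneous 2846 stood apart on stromal markers as well. Fibroblast and progenitor markers, 12 genes, summed to 393 to 486 CPM in blood, 392 to 1068 in gonadal fat, 598 to 959.6 in the other 3 subcutaneous libraries and 5966 in subcutaneous 2846. That library also had the highest subcutaneous sums of the 8 endothelial markers (248.9 CPM, where blood had 82.0 to 133) and the 8 B cell markers (102 CPM). Blood 2807 had 220 CPM of the B cell markers, where the other blood libraries had 18.8 to 59.2. It was also the highest blood library for the T cell markers given below and for 8 dendritic cell markers (40.4 CPM, others 3.03 to 8.64). In blood, most of the endothelial sum was Pecam1 (mean 103 of 112 CPM). Most of the fibroblast and progenitor sum in blood was Gsn and Pi16 (mean 247 and 157 of 452 CPM). T cell markers, 10 genes, summed to 10.5 to 37.0 CPM in blood, 1.81 to 8.21 in gonadal fat and 26.7 to 236 in subcutaneous fat, highest in subcutaneous 2771, which was also highest for the LXR group. Neutrophil markers, 10 genes, went the other way, from 2915 to 4257 CPM in blood to 374 to 802 in gonadal fat and 409 to 1296 in subcutaneous fat. Most of the neutrophil sum in blood was Retnlg and Mmp9 (mean 2582 and 574 of 3451 CPM). Erythroid markers, 7 genes, summed to 8371 CPM in blood 2771, against 17.7 to 144 in the other blood libraries. They summed to 21.1 to 99.7 CPM in gonadal fat and 7.65 to 230 in subcutaneous fat. The part of any of these in the sterol gene results was not tested.

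Between the fats, none of the 32 genes passed in either direction, where 1 of all genes did (0.00651%). The same count of 0 came from DESeq2, where 0.236% of all genes were higher in gonadal fat and 0.727% lower. It also came from limma-voom, where none of all genes passed. At an unadjusted p under 0.05 there were 3 of 32, Sqle, Srebf2 and Mylip, where 8.03% of all genes passed; fold changes here are gonadal against subcutaneous. Sqle was above subcutaneous fat in all gonadal libraries (log2 fold change 1.96 ± 0.75, adjusted p = 0.536) and Mylip below it in all (log2 fold change -1.09 ± 0.30, adjusted p = 0.41), where 1.94% and 1.69% of all genes had such a gap in these directions. Srebf2 overlapped (log2 fold change 0.54 ± 0.18, adjusted p = 0.48) but was higher in gonadal fat in 3 of 3 mice with both fats (0.26 to 0.70). The genes called in 1 fat alone, Fdft1, Msmo1, Nsdhl, Insig1 and Mylip in gonadal fat and Mvk, Pmvk and Hsd17b7 in subcutaneous fat, are therefore not shown to differ between fats. The difference of Abca1 between the fats did not pass either (log2 fold change -0.76 ± 0.40, adjusted p = 0.674).

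Other genes of the pathway were counted in 7 lists of 78 genes, of which 73 were tested. In gonadal fat 12 were higher and 9 lower (16.4% and 12.3%, against 15.4% and 11.6% of all genes), and in subcutaneous fat 12 were higher and 14 lower (16.4% and 19.2%). Without subcutaneous 2846 these were 14 higher and 9 lower in gonadal fat and 10 higher and 9 lower in subcutaneous fat. None passed between the fats. Of 10 genes of SREBP processing, none passed in gonadal fat and 1 was lower in subcutaneous fat: Erlin2, a scaffold in the endoplasmic reticulum (22.4 ± 3.78 against 35.3 ± 0.503 CPM in blood; log2 fold change -0.65), a call lost without subcutaneous 2846. Of 11 genes of the isoprenoid branch, which prenylates proteins, 1 was lower in gonadal fat and 1 was higher and 1 lower in subcutaneous fat, the lower being the farnesyltransferase subunit Fnta in both (-0.68 and -0.74).

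Of 12 genes of fatty acid synthesis, 3 were higher and 1 lower in gonadal fat, and 4 higher and 2 lower in subcutaneous fat (3 and 0 without subcutaneous 2846). The desaturase Fads1 was higher in gonadal fat (3.58; 20.5 ± 11.9 against 1.71 ± 0.153 CPM), and fatty acid synthase Fasn in subcutaneous fat (1.302; 46.7 ± 17.0 against 18.9 ± 12.5 CPM). Elovl5, an elongase, was lower in gonadal fat (-0.57) and Acly, which supplies cytosolic acetyl-CoA, in subcutaneous fat (-0.62; 139 ± 37.8 against 214 ± 14.7 CPM). Of 10 genes of lipoprotein uptake and lysosomal release, 3 were higher in gonadal fat and 1 in subcutaneous fat, led by the scavenger receptor Cd36 in both (5.25 and 3.82).

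LXR partners and targets moved in both directions, with 3 higher and 4 lower of 10 tested in each fat (4 and 2 higher without subcutaneous 2846). Lipoprotein lipase Lpl was higher in gonadal fat (4.45; 569 ± 542 against 26.0 ± 37.1 CPM) and the phospholipid transfer protein Pltp in subcutaneous fat (2.59; 145 ± 67.4 against 24.2 ± 31.0 CPM). Rxra, the partner of LXR, was lower in gonadal fat (-1.17; 111 ± 31.5 against 251 ± 21.0 CPM), and Smpdl3a in subcutaneous fat (-1.33). Of 4 oxysterol genes tested, 1 was higher in gonadal fat, and 2 were higher and 1 lower in subcutaneous fat (2 and 0 without subcutaneous 2846), where the sterol hydroxylase Cyp27a1 was among the higher (3.79; 32.2 ± 27.3 against 2.30 ± 1.88 CPM). Of 16 intracellular sterol and lipid carriers, 2 were higher and 3 lower in gonadal fat and 1 higher and 5 lower in subcutaneous fat. Fabp5 was higher (3.38) and Osbpl2 lower (-0.91) in gonadal fat, and Stard5 was lower in subcutaneous fat (-1.05). Cd36, Lpl and Pltp are also expressed by macrophages, whose marker sums are given above.

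The make-up of reads within genes is given as a description, with no test. The share of Sc5d reads assigned to Sc5d-201 was 63.1% in blood (58.3% to 67.8% over libraries), 52.1% in gonadal fat (45.1% to 61.8%) and 44.4% in subcutaneous fat (35.3% to 64.8%). For Srebf1, Srebf1-201 took 78.8%, 69.3% and 78.7%. Reads on transcripts not annotated as protein-coding made up 61.9%, 56.7% and 74.5% of Msmo1, 63.8%, 61.4% and 65.0% of Ebp, and 24.0%, 26.8% and 30.7% of Srebf2 in blood, gonadal fat and subcutaneous fat, pooled over libraries. In Abca1 they were 2.85%, 0.844% and 0.644%.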

How the data were processed

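Eosinophil RNA from 12 libraries, 4 per tissue, was made into total RNA libraries with a SMARTer stranded pico kit, per the labels' protocols. The submitters' processing notes name Salmon 1.6.0, Trim Galore 0.6.4, the mm10 build and DESeq2 1.30.1, with no strand setting. The deposited tables give, per transcript, the authors' expected (estimated) counts, TPM and effective length. The deposited estimated counts were summed per gene with GENCODE M21 (139791 of 140992 transcripts matched; the 1201 others held 0.351% to 0.538% of reads) and rounded. The authors' TPM, which carry no depth, were summed per gene for levels between genes, and the deposited effective length (another kind of value, in bases) entered 1 alternative as an offset.

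Differences were tested with edgeR 4.0.16 in R 4.3.3 (TMM scaling, filterByExpr, robust quasi-likelihood F test, tissue as the term, all 12 libraries, threshold 0.05 after Benjamini-Hochberg adjustment over 15367 genes; common biological coefficient of variation 0.545). The standard error is the log2 fold change divided by the square root of F. CPM are TMM-scaled, and library scores use a log2 scale with a prior count of 2. The scripts were tested on simulated data. Libraries of 1 tissue are from separate mice. Same-numbered libraries share an animal: their deviations from the group means correlated at -0.111 to 0.358 over 9 pairs (mean 0.084; -0.0188 over 39 pairs of different mice), and the mouse was a block in an alternative. Alternatives were DESeq2 1.42.0, limma 3.58.1 with voom and sample weights, RLE and upper quartile scaling, no low-count filter, only the 2 groups compared, the effective length offset, each of the 12 libraries left out and, added after seeing the data, protein-coding transcripts only and 2 libraries left out together.

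Members and lists were chosen with earlier results of these data known. Genes that passed at least 1 comparison, and Srebf1, Srebf2, Insig1, Insig2, Nr1h2, Nr1h3, Abca1 and Abcg1, are given by library. From each other pathway list, the called gene with the largest fold change in each direction and at least 20 CPM in the higher group is named. Coordinates are GRCm38. Promoters were read from RefSeq (GRCm38.p6). Of 35 member windows, 29 had bases after the start found in a GENCODE transcript of the gene, and 6 members had no window.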

Additional observations from a re-analysis of the deposited data

Results flagged for a closer look

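In 9 of 96 groups of 4 libraries, 1 library stood far from the others by Dixon's criterion, its gap to the nearest set against the whole range. Chance alone gives about 5% of such groups. Blood 2807 stood high in 3 of them: Mvk at 1.31 CPM (others 0.681 to 0.744), Stard4 at 20.7 (15.1 to 15.4) and Abcg1 at 176 (96.3 to 104.6). Gonadal 2683 was high for Srebf1 at 50.1 CPM (41.4 to 41.9) and for Nr1h3 at 13.9 (2.67 to 4.57), and gonadal 2668 was high for Stard4 at 36.2 (20.3 to 22.8). In subcutaneous fat, library 2846 was low for Cyp51 at 8.98 CPM (21.1 to 22.1) and high for Dhcr7 at 16.2 (4.91 to 6.38), and library 2771 was high for Nr1h3 at 27.5 (1.69 to 5.63).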

How the results depend on the processing

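Over 22 alternatives, 4 of 20 called values kept their direction and their side of the threshold throughout: Sc5d in both fats, Srebf2 in gonadal fat and Abca1 in subcutaneous fat. Of 440 alternative values of called genes, 316 kept both, 123 kept their direction but missed the threshold and 1 reversed: Dhcr7 in gonadal fat with the effective length offset, at -0.0695. The 9 members higher in gonadal fat became 5 with the mouse as replicate block, 15 with DESeq2, 17 with limma-voom, 14 without subcutaneous 2846 and blood 2807 together, and 3 to 12 without 1 library. The 2 lower became 1 (Sc5d) with no low-count filter, with only the 2 groups compared, with the effective length offset, without those 2 libraries, and with protein-coding transcripts only, and 1 to 2 without 1 library. The 8 members higher in subcutaneous fat became 2 with the mouse as replicate block, 4 with only the 2 groups compared, 5 with the effective length offset, 4 with protein-coding transcripts only, and 2 to 7 without 1 library. The 1 lower and the 0 between fats did not change under any alternative. RLE and upper quartile scaling left the counts of 9 and 8 as they were. Among members not called, the sign of the fold change turned under at least 1 alternative for 4 in gonadal fat, 7 in subcutaneous fat and 14 between fats. Counts over all genes moved too. The 2372 higher in gonadal fat became 1862 with the mouse as replicate block, 3160 with DESeq2, 3614 with limma-voom, 1721 with the effective length offset, 1720 with protein-coding transcripts only, 2928 without those 2 libraries, and 1546 to 2925 without 1 library. The 2366 higher in subcutaneous fat became 1588 with the mouse as replicate block, 3528 with DESeq2, 1725 with only the 2 groups compared, 1839 with the effective length offset, 1691 with protein-coding transcripts only, and 1566 to 2495 without 1 library. The cause of these changes was not tested. Over the 12 libraries the fewest reads were those of Mvk (374), Mvd (500), Hsd17b7 (550), Acat2 (582), Nsdhl (613) and Tm7sf2 (637), which limits the precision of their values most.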
